A study of Mus musculus with 6 samples.

Results

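The nuclear subunits of respiratory complex I were followed through RNA sequencing of mouse hearts. The members are 37 of the 20254 genes in the deposited table. Their Ensembl identifiers carry protein-coding GENCODE symbols of Nduf, 1 of the letters a, b, c, s or v and a number (Ndufa1 to Ndufv3). Ndufab1 is counted among the 37. The naming rule uses no measured value, though the members were chosen with earlier results of these data known. Assembly factors (Ndufaf genes) and pseudogenes were left out. All 37 passed the filter on low values, a normalized signal of 10 or more in at least 3 libraries, which 13823 genes passed.

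The hearts came from C57BL/6 mice of 2 genotypes with 3 libraries each, wild-type (WT) and Trdn-as KO, where KO stands for knockout and Trdn-as is a long non-coding RNA named as antisense to Trdn, the triadin gene. In both genotypes, replicates 1 and 2 were 14 months old and replicate 3 was 5 months old, so 5 months holds 1 WT and 1 KO library. How the allele was made is not given in the sources used here, Trdn-as itself was not analysed here, and the labels do not state that replicates are separate animals. Replicate 3 differs from the others in age and replicate 2 in its Y-linked signal, so the 3 libraries of a genotype are not repeats of 1 heart, and p-values measure the spread between these libraries. Trdn read 5702, 5599.8 and 9104 (WT) and 3429, 3459.7 and 5606 (KO), lower in each KO library than in the WT library of the same number (fitted log2 difference −0.71 (SE 0.10, limma adjusted p = 0.261)).

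The deposited values are a normalized signal that totalled 19810148 to 23510139 per library, of which mitochondrially encoded genes took 40.0 to 49.4%. Y-linked genes summed to at least 2496 in replicates 1 and 3 and at most 82.2 in replicate 2 of either genotype, so both 5-month libraries and 1 of the 14-month libraries of each genotype read as male. The 12 cardiomyocyte markers were high in all 6 libraries, and their sums were 921898, 948582 and 1489950.0 (WT) and 864306, 993028 and 964557 (KO). In whole-heart RNA, fewer cells of a type and less RNA per cell cannot be told apart.

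Complex I (NADH:ubiquinone oxidoreductase) is the entry point of the respiratory chain for electrons from NADH, and it couples their passage to ubiquinone to proton pumping across the inner mitochondrial membrane. It is L-shaped: a peripheral arm in the matrix holds the flavin (N) module, where NADH is oxidized, and the quinone (Q) module, where ubiquinone is reduced, while a membrane arm pumps protons. The catalytic core is made of subunits conserved from bacteria, some encoded in the nucleus and the others, all in the membrane arm, in mitochondrial DNA; the remaining nuclear subunits are called accessory, and many are needed for assembly and stability. Heart muscle is rich in mitochondria and depends on this complex for most of its energy supply.

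By role, the members were 3 core subunits of the flavin module (Ndufv1, Ndufv2 and Ndufs1), 4 core subunits of the quinone module (among them Ndufs3, Ndufs7 and Ndufs8), 9 accessory subunits of the peripheral arm, 19 accessory subunits of the membrane arm, Ndufa4, which is now counted with complex IV, and Ndufab1, the mitochondrial acyl carrier protein, which sits in both arms. They lie on 15 chromosomes, with Ndufa1 and Ndufb11 on the X chromosome. Ndufb1 is not among them, because its row carries the GENCODE symbol Ndufb1-ps and a non-coding gene type. With Ndufb1-ps added, the counts of called genes for age and for the interaction stayed at 31 and 4, now of 38. Between KO and WT 0 were called, and the genes with an unadjusted limma p under 0.05 went from 3 to 4.

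Promoter sequences were read for 33 of the 37 members from RefSeq (GRCm38.p6, the same build as mm10), and 8 motifs of factors known from housekeeping and mitochondrial promoters were searched on both strands in the 250 bases before the start, in 27025 promoters in all. The NRF1 motif (GCGCA, any base, GCGC) was in 6 of 33 members (18.2%) and in 3.87% of all promoters: Ndufa11, Ndufa5, Ndufa8, Ndufb4, Ndufs5 and Ndufs6. The cyclic AMP response element TGACGTCA was in 3 members (9.09%, against 1.60% of all promoters), Ndufa10, Ndufa11 and Ndufb2. The oestrogen-related receptor site AAGGTCA was also in 3 (9.09%, against 4.04%), Ndufb2, Ndufb4 and Ndufs5. The ETS motif CCGGAAG was in 3 (9.09%, against 7.07%), the GC box GGGCGGG in 10 (30.3%, against 23.6%), the CCAAT box in 10 (30.3%, against 34.5%) and TATAAA in 4 (12.1%, against 13.0%). The YY1 motif AAGATGGC was in 0 members and 1.58% of promoters in that window; in the 300 bases that take in the first 50 after the start it was in 7 of 33 (21.2%, against 2.87%), Ndufa3, Ndufa9, Ndufb8, Ndufc1, Ndufs4, Ndufs6 and Ndufs7. A match describes letters and not a bound site. The whole window is shown for Ndufs5 and Ndufa11, which hold the NRF1 motif with another of the motifs, and 80 bases for Ndufb4, Ndufb2 and Ndufb6, each around 1 match. Capitals mark every match to the 8 motifs, and all are written 5′ to 3′ on the strand of the gene.
Ndufs5, chr4:123718187-123718436, minus strand, oestrogen-related receptor site in reverse complement and NRF1 motif: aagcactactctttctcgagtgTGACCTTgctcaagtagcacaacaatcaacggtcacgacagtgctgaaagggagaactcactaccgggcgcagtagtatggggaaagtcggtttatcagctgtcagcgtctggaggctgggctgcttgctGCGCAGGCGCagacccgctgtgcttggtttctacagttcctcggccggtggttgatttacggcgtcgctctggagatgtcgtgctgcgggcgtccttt
Ndufa11, chr17:56717512-56717761, plus strand, cyclic AMP response element and NRF1 motif: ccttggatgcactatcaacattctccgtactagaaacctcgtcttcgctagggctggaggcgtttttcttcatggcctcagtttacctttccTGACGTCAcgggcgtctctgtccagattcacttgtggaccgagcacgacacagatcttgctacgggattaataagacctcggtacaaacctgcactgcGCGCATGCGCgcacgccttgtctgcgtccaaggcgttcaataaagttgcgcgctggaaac
Ndufb4, chr16:37654515-37654594, minus strand, NRF1 motif and CCAAT box in reverse complement: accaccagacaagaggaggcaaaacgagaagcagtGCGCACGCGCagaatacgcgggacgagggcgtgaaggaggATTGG
Ndufb2, chr6:39592347-39592426, plus strand, oestrogen-related receptor site: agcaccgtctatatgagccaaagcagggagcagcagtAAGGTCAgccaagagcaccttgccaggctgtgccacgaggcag
Ndufb6, chr4:40279592-40279671, minus strand, ETS motif in reverse complement: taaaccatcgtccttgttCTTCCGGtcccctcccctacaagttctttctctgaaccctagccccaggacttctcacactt

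The members were abundant in every library, with signals between 817 (Ndufa7 in a KO heart of 14 months) and 15691 (Ndufa4 in the WT heart of 5 months). Per kilobase of transcript, the mean signal of the 4 libraries of 14 months had a median of 3141 over the members. Ndufa4 stood highest at 12742 per kilobase, followed by Ndufb9, a membrane-arm subunit that anchors an acyl carrier protein, at 7360.4 and Ndufb8 at 6757. At the low end were Ndufb2 at 383, Ndufb4 at 1013 and Ndufv3, an accessory subunit beside the flavin module, at 1255 per kilobase. The place of Ndufb2 rests on its annotated length, since with its shorter annotated transcript it would read 2033 per kilobase. Ndufb4 may share reads with the processed pseudogene Ndufb4c. At 5 months the same 3 genes were highest per kilobase, and over the 37 members the levels per kilobase at the 2 ages had a Spearman correlation of 0.71. Among the 4 libraries of 14 months the members varied little: the coefficient of variation of the signal, with both genotypes together, had a median of 4.41% and ran from 1.54% for Ndufb10 to 10.8% for Ndufb2.

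The largest difference among the members was between the ages. At 5 months 31 of the 37 were higher than at 14 months at a limma adjusted p under 0.05, against 16.0% of all 13823 genes tested, and none was called lower. The fitted differences had a median of 1.05 on the log2 scale and ran from 0.08 to 2.27, while the median of all genes was −0.02. This rise was not particular to the members. Of 77 cytosolic ribosomal protein genes tested, 68 were called higher at 5 months and 0 lower, with a median of 0.97. By the fit 22 members were more than 2-fold and 4 more than 4-fold higher: Ndufa2 (4.83-fold), Ndufa12 (4.25-fold), Ndufa1 (4.07-fold) and Ndufb2 (4.06-fold). Among the 6 not called were Ndufab1, Ndufa10, Ndufc1, Ndufc2 and Ndufs3; without the KO heart of 5 months all 37 were called. All 37 fitted values were above 0; 35 were under quantile normalization and under scaling to the total without mitochondrial genes, with Ndufab1 below 0 in both, 36 without WT replicate 1, 34 without WT replicate 3, with Ndufab1 and Ndufa10 among those below 0, and 34 with a trend of length and GC content removed. In 33 members both 5-month libraries were above all 4 libraries of 14 months, which held for 25.0% of all genes tested.

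**Figure D1:**
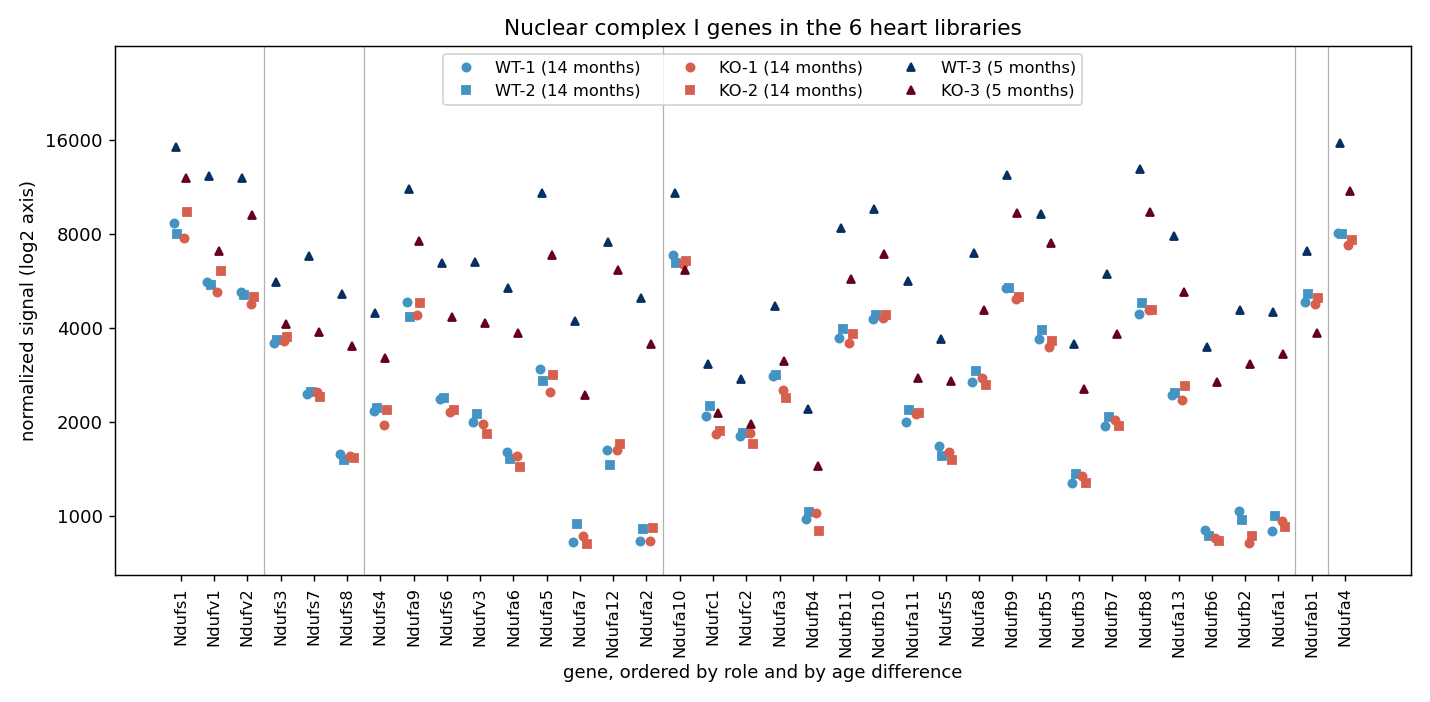
Normalized signal (log2 axis) of 36 of the 37 nuclear complex I genes in each of the 6 libraries, with genes ordered by role (separated by vertical lines: flavin core, quinone core, peripheral accessory, membrane accessory, Ndufab1, Ndufa4) and by age difference. The triangles of 5 months lie above the circles and squares of 14 months in 33 genes, and the WT triangle lies above the KO triangle in all 36.

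Of the core subunits of the flavin module, all 3 were higher at 5 months. Ndufv1, which binds the flavin and takes the electrons from NADH, read 5609, 5486 and 12292 (WT) and 5220.3, 6090.1 and 7069 (KO), where the third value of each genotype is the 5-month heart. The age difference was 0.74 (SE 0.19, limma adjusted p = 0.0196), and it did not pass in 4 of the alternatives tried, 3 of them leaving out WT replicate 1, 2 or 3 (0.69, 0.67 and 0.33). Ndufv2, an iron-sulfur subunit beside it, read 5234, 5091 and 12119.6 (WT) and 4793, 5028 and 9203 (KO), a difference of 1.07 (SE 0.12, limma adjusted p = 0.000973). Ndufs1, which carries iron-sulfur clusters along the electron path, read 8709, 8021 and 15220.5 (WT) and 7784, 9405 and 12100.2 (KO), a difference of 0.68 (SE 0.14, limma adjusted p = 0.00943). In all 3 genes both 5-month hearts were above the 4 others; for Ndufs1 the male libraries alone gave 0.72 (limma adjusted p = 0.0511), and with the length and GC trend removed as well 0.60 (limma adjusted p = 0.0647).

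Of the core subunits of the quinone module, Ndufs7 and Ndufs8 were higher at 5 months and Ndufs3 was not called. Ndufs8, an iron-sulfur subunit, read 1584, 1519 and 5152 (WT) and 1561, 1532 and 3510.4 (KO), a difference of 1.46 (SE 0.14, limma adjusted p = 0.000582). Ndufs7, which carries the last iron-sulfur cluster before ubiquinone, read 2454, 2505 and 6808 (WT) and 2502, 2404 and 3894 (KO), a difference of 1.06 (SE 0.18, limma adjusted p = 0.00358). Both 5-month hearts were well above the others in both genes. Ndufs3, a scaffold of early assembly, read 3589, 3671 and 5614 (WT) and 3648, 3736 and 4113 (KO), and its difference of 0.39 (SE 0.14, limma adjusted p = 0.0575) did not pass although its libraries did not overlap. Without KO replicate 3 Ndufs3 passed, at 0.63 (limma adjusted p = 0.00336).

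All 9 accessory subunits of the peripheral arm were higher at 5 months, with a median difference of 1.58. Ndufa2, a subunit with a thioredoxin-like fold, read 832 and 913 in WT and 836 and 916 in KO at 14 months, against 4991 (WT) and 3571 (KO) at 5 months, and it had the largest age difference of the members, 2.27 (SE 0.14, limma adjusted p = 0.000119). Ndufa12, which takes the place of the assembly factor Ndufaf2 in the finished complex, read 1628 and 1462 in WT and 1625 and 1708 in KO at 14 months, against 7560.1 (WT) and 6150.4 (KO) at 5 months, a difference of 2.09 (SE 0.13, limma adjusted p = 0.000126). Ndufa7 read 826 and 942 in WT and 862 and 817 in KO at 14 months, against 4226 (WT) and 2437 (KO) at 5 months, a difference of 1.90. In these 3 genes the 14-month libraries lay close together and both 5-month hearts stood far above them, the WT one highest. Ndufa5 read 2968 and 2702 in WT and 2492 and 2829.7 in KO at 14 months, against 10829 (WT) and 6852 (KO) at 5 months (difference 1.65). Ndufa6, which binds an acyl carrier protein, read 1601 and 1528 in WT and 1559.8 and 1433 in KO at 14 months, against 5383 (WT) and 3859.6 (KO) at 5 months (difference 1.58). Ndufv3 read 2004 and 2128 in WT and 1979 and 1828 in KO at 14 months, against 6490.5 (WT) and 4159.8 (KO) at 5 months (difference 1.39). The other 3 members of this arm had smaller differences, with the same order of the libraries by age. Ndufs6, a zinc-binding subunit, read 2366 and 2389 in WT and 2159 and 2189 in KO at 14 months, against 6455 (WT) and 4353 (KO) at 5 months (difference 1.22). Ndufa9, which binds a nucleotide cofactor near the quinone site, read 4855 and 4355 in WT and 4403 and 4823 in KO at 14 months, against 11164 (WT) and 7629 (KO) at 5 months (difference 1.00). Ndufs4, whose loss in mice is used as a model of Leigh syndrome, read 2174 and 2219.8 in WT and 1963 and 2186 in KO at 14 months, against 4459.5 (WT) and 3198 (KO) at 5 months (difference 0.82). The limma adjusted p of these 9 genes ran from 0.000119 (Ndufa2) to 0.00306 (Ndufs4).

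Of the 19 accessory subunits of the membrane arm, 16 were higher at 5 months, with a median difference of 1.04 over the 19. Ndufa1, an X-linked subunit needed for assembly, read 894 and 1006 in WT and 965 and 923 in KO at 14 months, against 4499 (WT) and 3306 (KO) at 5 months, a difference of 2.03 (SE 0.14, limma adjusted p = 0.00015). Ndufb2 read 1040.4 and 973 in WT and 824 and 863 in KO at 14 months, against 4570.5 (WT) and 3059.9 (KO) at 5 months, a difference of 2.02 (SE 0.12, limma adjusted p = 9.91e-05). Ndufb6 read 904 and 864 in WT and 851 and 831 in KO at 14 months, against 3481 (WT) and 2691 (KO) at 5 months, a difference of 1.83 (SE 0.12, limma adjusted p = 0.00014). In all 3 genes each 5-month heart stood more than 3-fold above the 14-month mean of its genotype.

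In 8 further subunits of the membrane arm the fitted difference lay between 1.00 (Ndufs5) and 1.38 (Ndufa13) on the log2 scale. Ndufa13, also known as GRIM-19, read 2443 and 2485 in WT and 2353 and 2612 in KO at 14 months, against 7906 (WT) and 5218 (KO) at 5 months (difference 1.38). Ndufb8 read 4436 and 4801 in WT and 4579 and 4564 in KO at 14 months, against 12948 (WT) and 9385 (KO) at 5 months (difference 1.26). Ndufb7, a subunit of the intermembrane-space face, read 1938 and 2082 in WT and 2025 and 1944 in KO at 14 months, against 5964 (WT) and 3836 (KO) at 5 months (difference 1.26). In each of the 3 the WT heart of 5 months was the highest library and the KO heart of 5 months the next. Ndufb3 read 1281 and 1367 in WT and 1344 and 1277 in KO at 14 months, against 3557 (WT) and 2547 (KO) at 5 months (difference 1.19). Ndufb5 read 3702 and 3941 in WT and 3475 and 3632 in KO at 14 months, against 9269 (WT) and 7502 (KO) at 5 months (difference 1.18). Ndufb9 read 5374 and 5368 in WT and 4956 and 5029 in KO at 14 months, against 12320.5 (WT) and 9334 (KO) at 5 months (difference 1.05). The order of the libraries was the same in these 3 and in the next 2, both intermembrane-space subunits. Ndufa8 read 2685 and 2907 in WT and 2768 and 2623 in KO at 14 months, against 6979 (WT) and 4557 (KO) at 5 months (difference 1.04). Ndufs5 read 1674 and 1561 in WT and 1605 and 1509 in KO at 14 months, against 3705 (WT) and 2719 (KO) at 5 months (difference 1.00).

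In the remaining called subunits of the membrane arm the age difference was below 1 on the log2 scale. Ndufa11, a membrane subunit at the contact with complex III, read 1998 and 2195 in WT and 2129.9 and 2133 in KO at 14 months, against 5654 (WT) and 2761 (KO) at 5 months, a difference of 0.90 (SE 0.22, limma adjusted p = 0.0155), and its KO heart of 5 months held 48.8% of the WT value. Ndufb10 read 4292 and 4417 in WT and 4301 and 4407 in KO at 14 months, against 9594 (WT) and 6895 (KO) at 5 months (difference 0.90). Ndufb11, the other X-linked member, read 3713 and 3969.7 in WT and 3582 and 3819 in KO at 14 months, against 8356 (WT) and 5732 (KO) at 5 months (difference 0.88). All of these had both 5-month hearts on top. Ndufb4 read 983 and 1035 in WT and 1022 and 896 in KO at 14 months, against 2209 (WT) and 1443 (KO) at 5 months (difference 0.86). Ndufa3 read 2806 and 2834 in WT and 2535 and 2392 in KO at 14 months, against 4695 (WT) and 3134 (KO) at 5 months (difference 0.54, limma adjusted p = 0.0145). In both the KO heart of 5 months was above all 14-month hearts, by less in Ndufa3.

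The 3 membrane-arm subunits that were not called had the smallest differences of that arm. Ndufc2 read 1803 and 1843 in WT and 1848 and 1698 in KO at 14 months, against 2754 (WT) and 1978 (KO) at 5 months, a difference of 0.38 (SE 0.13, limma adjusted p = 0.0611). Ndufc1 read 2093 and 2257 in WT and 1833 and 1872 in KO at 14 months, against 3069 (WT) and 2144 (KO) at 5 months, a difference of 0.35 (SE 0.12, limma adjusted p = 0.0531). Ndufa10, a subunit with a nucleoside kinase fold, read 6874 and 6467 in WT and 6398 and 6559 in KO at 14 months, against 10793 (WT) and 6134 (KO) at 5 months, a difference of 0.31 (SE 0.18, limma adjusted p = 0.212). In Ndufc1 and Ndufa10 the KO heart of 5 months lay within or below the range of the 14-month hearts, so the ages overlapped, and in Ndufc2 they did not. Without KO replicate 3 Ndufa10 passed, at 0.69 (limma adjusted p = 0.00219), and without WT replicate 3 it was −0.08.

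Ndufa4 and Ndufab1 stand apart from the arms by role. Ndufa4 read 8035 and 8012 in WT and 7391 and 7653 in KO at 14 months, against 15691 (WT) and 11022 (KO) at 5 months, and it was higher at 5 months by 0.76 (SE 0.13, limma adjusted p = 0.0045). Ndufab1, which also serves mitochondrial fatty acid synthesis, read 4839.5 and 5132 in WT and 4775 and 4982 in KO at 14 months, against 7045 (WT) and 3846 (KO) at 5 months; its WT heart of 5 months was the highest of the 6 libraries and its KO heart of 5 months the lowest, and the fitted difference was 0.08 (SE 0.19, limma adjusted p = 0.77). Without the WT heart of 5 months this difference was −0.34 (limma adjusted p = 0.0366), and without the KO heart of 5 months it was 0.50 (limma adjusted p = 0.00877).

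**Figure D2:**
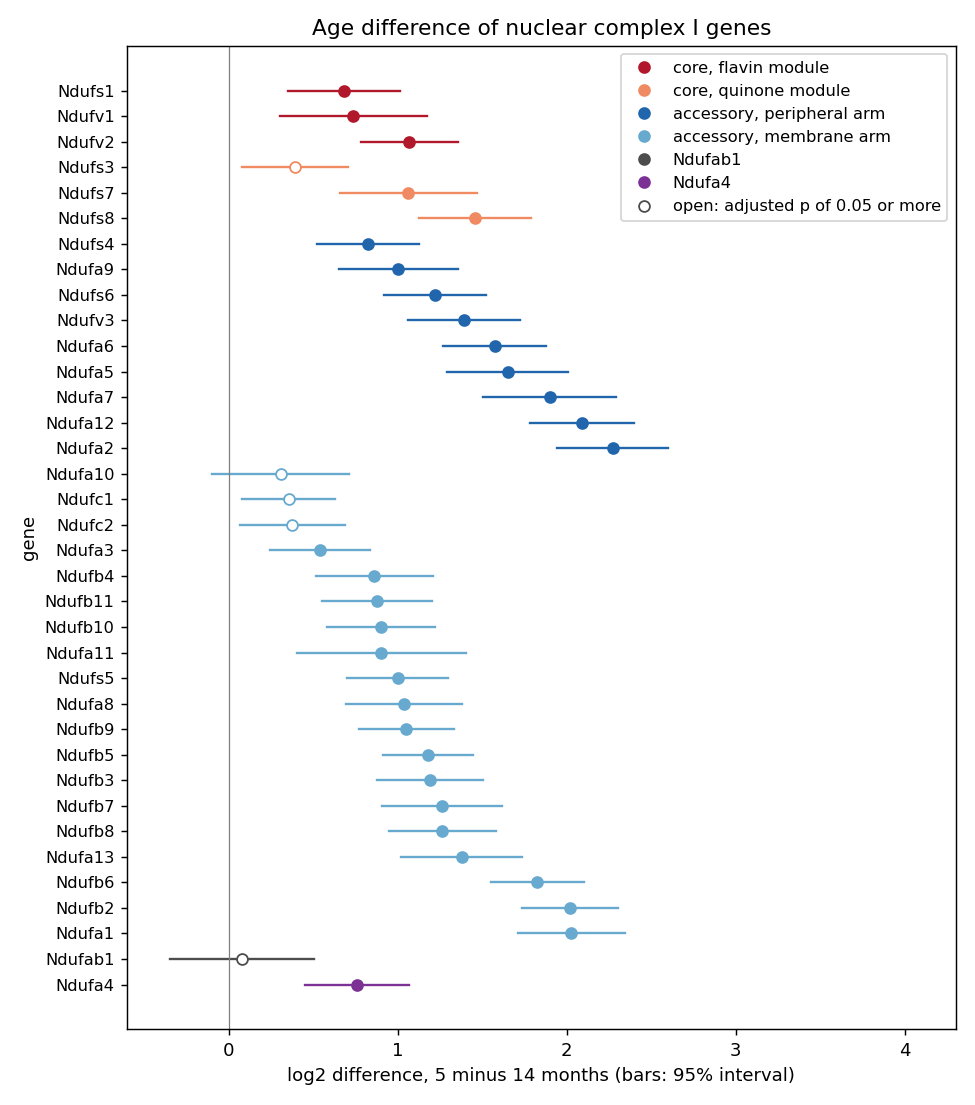
Fitted log2 difference between 5 and 14 months for 36 of the 37 genes, with 95% intervals and colours by role. The filled points are the 31 genes at a limma adjusted p under 0.05, all to the right of 0, and the accessory subunits of the peripheral arm reach furthest right, to 2.27 for Ndufa2; Ndufab1, an open point, fell below 0 under quantile normalization and under scaling to the total without mitochondrial genes.

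Read within each genotype, the 5-month value over the mean of the 14-month libraries was above 1 in all 37 members in WT and reached 5.72 for Ndufa2, a median log2 difference of 1.28. In KO it ran from 0.788 for Ndufab1 to 4.08 for Ndufa2, a median of 0.80, and it was below 1 for 3 members, among them Ndufab1 and Ndufa10 (0.947). The members kept nearly the same order in both genotypes (Spearman correlation of the WT and KO age differences 0.94 over 37 genes, which share no library between them). Members with a lower level per kilobase at 14 months tended to have the larger age differences (Spearman correlation −0.43 over the 37 genes), where over all 13375 protein-coding genes with a length this correlation was 0.15; both measures use the 14-month libraries. As 5 months is 1 library of each genotype, age and any other feature these libraries share cannot be told apart.

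Transcript length moved with the age difference across the whole table. The members are short, with a median length of 875 bases against 2996.5 for all protein-coding genes tested, and 22 of them are under 1000 bases. Over all protein-coding genes the median age difference was 0.89 in those of up to 750 bases, 0.65 from 750 to 1000, 0.39 from 1000 to 1500, 0.10 from 1500 to 2500, −0.12 from 2500 to 4000 and −0.22 above 4000. In the same classes the members had medians of 1.22 (15 genes), 1.06 (7 genes), 1.09 (6 genes) and 0.78 (8 genes), and 0.68 for Ndufs1, the longest. Ndufb2 and Ndufab1 fall in the class from 1500 to 2500 by a median over unlike annotated lengths (455 to 4371 and 1416 to 3479 bases). Transcripts under 1000 bases took 8.51, 8.46 and 14.5 (WT) and 8.00, 7.92 and 11.9 (KO) percent of the signal outside mitochondrial genes. With a trend of length and GC content removed from each library, 30 of 37 members were still called higher at 5 months, against 14.1% of all genes. Their median was 0.77, and 34 of 37 were above 0. Of the 77 cytosolic ribosomal protein genes, 62 were called higher when treated likewise, with a median of 0.71. Under that setting Ndufab1, Ndufc1 and Ndufc2 were at −0.09, −0.01 and −0.02. The part of length in the age difference was not tested beyond this.

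**Figure D3:**
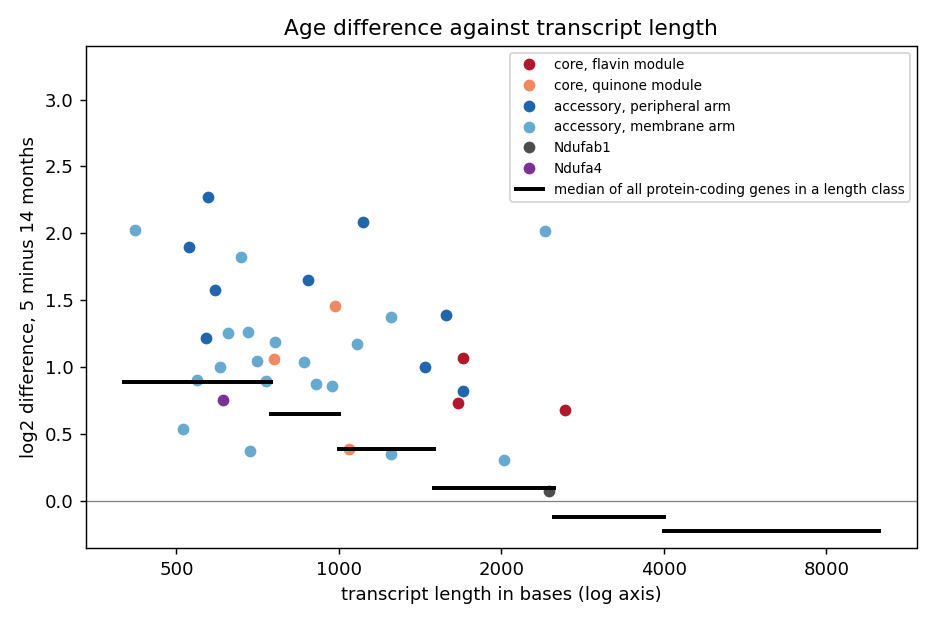
Fitted log2 difference between 5 and 14 months against transcript length (log axis) for 36 of the 37 genes, coloured by role, with black bars at the median of all protein-coding genes in 6 length classes, the outer ones open-ended. Most members lie above the bar of their class, and the bars fall from 0.89 in the shortest to −0.22 in the longest class. Ndufab1, near 0, changes sign with quantile normalization. Ndufb2 and Ndufab1 are drawn at the median of unlike annotated lengths.

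Summed over the 37 genes, the signal was 120697, 120814 and 278093 (WT) and 114908, 119849 and 191173 (KO), so the 5-month hearts were the highest and the WT one the higher of them. This sum was 1.07, 1.09 and 1.97 (WT) and 1.05, 1.07 and 1.65 (KO) percent of the signal outside mitochondrial genes. The 7 core nuclear subunits took 31.2, 30.3 and 25.7 (WT) and 30.9, 32.5 and 26.0 (KO) percent of the members' sum, a smaller share in both 5-month hearts. The 7 complex I genes of mitochondrial DNA, which encode the proton-pumping core of the membrane arm, did not follow the nuclear members: their summed signal over that of the 37 members was 26.8, 25.0 and 10.6 (WT) and 32.4, 26.4 and 14.4 (KO). Of these 7, mt-Nd3 (age difference 0.58 (SE 0.14, limma adjusted p = 0.0157)) and mt-Nd4l (0.53 (SE 0.16, limma adjusted p = 0.039)) were higher at 5 months, and the other 5 were not called, with values from −0.41 for mt-Nd2 to −0.09 for mt-Nd6. The called pair are the shortest of the 7 transcripts.

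**Figure D4:**
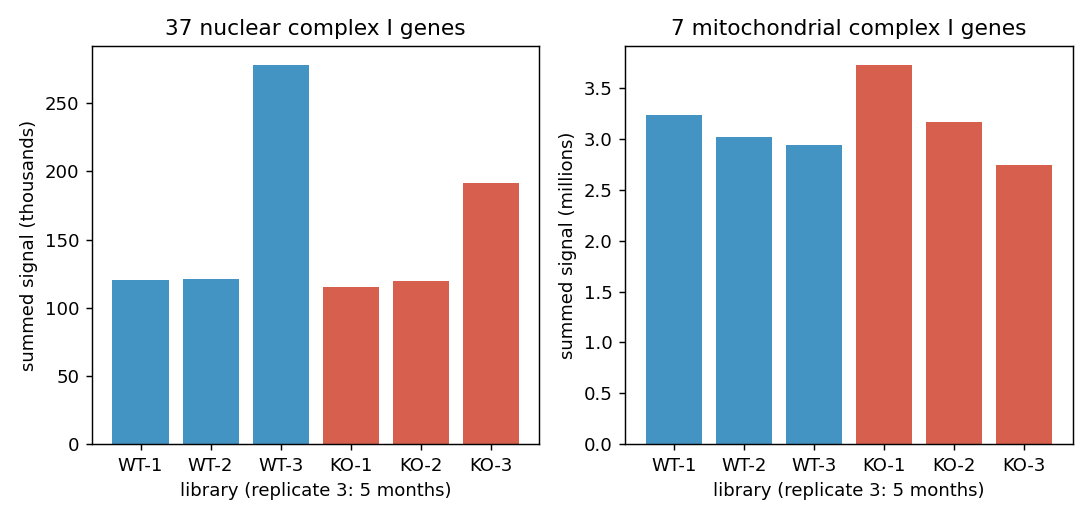
Summed normalized signal of the 37 nuclear complex I genes (left, axis in units of 1000) and of the 7 complex I genes of mitochondrial DNA (right, axis in units of 1000000) in each library, with WT in blue and KO in red. The nuclear sum is highest in the 2 libraries of 5 months (278093 in WT and 191173 in KO), while the mitochondrial sum is lowest in the same 2 libraries.

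Between KO and WT no member was called. By limma with age as a covariate 0 of 37 passed, as did 0 of all genes tested (0%). The smallest limma adjusted p of the members was 0.745, and limma-voom called 0 as well. An unadjusted limma p under 0.05 was found for 3 of the 37 members and for 841 of the 13823 genes tested. All 37 fitted differences were below 0, with a median of −0.20 and a range of −0.36 to −0.03, beside a median of −0.02 for all genes; 35 of 37 were below 0 under quantile normalization and under scaling to the total without mitochondrial genes. The medians in replicates 1, 2 and 3 were −0.05, −0.06 and −0.54, with 24, 26 and 37 of the 37 below WT. KO was below WT in all 3 replicate numbers in 15 members, and this held for 14.6% of all genes tested. The direction in all 37 rested on the 5-month hearts: in the 14-month hearts alone the median was −0.04, with 29 of 37 below 0, a range of −0.25 to 0.11 and 0 called (0.101% of all genes were called there).

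The 3 members with an unadjusted limma p under 0.05 are accessory subunits of the membrane arm, the role of 19 of the 37 members. Ndufb2 had the lowest fitted difference, −0.36 (SE 0.12, limma adjusted p = 0.745), with −0.34, −0.17 and −0.58 in replicates 1, 2 and 3. Ndufc1 followed with −0.33 (SE 0.11, limma adjusted p = 0.745), from −0.19, −0.27 and −0.52. Ndufa3 had −0.32 (SE 0.12, limma adjusted p = 0.745), from −0.15, −0.24 and −0.58. In these 3 genes KO was below WT at both ages. Ndufa11 had a fitted difference of −0.33 (SE 0.20, limma adjusted p = 0.745), but its replicates gave 0.09, −0.04 and −1.03, and in the 14-month hearts alone it was 0.03.

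At the other end, Ndufa12 (−0.03 (SE 0.13, limma adjusted p = 0.96)), Ndufs1 (−0.09 (SE 0.14, limma adjusted p = 0.862)) and Ndufs3 (−0.13 (SE 0.13, limma adjusted p = 0.781)) had the smallest fitted differences. Their replicates gave −0.00, 0.22 and −0.30 for Ndufa12, −0.16, 0.23 and −0.33 for Ndufs1 and 0.02, 0.03 and −0.45 for Ndufs3. All 3 were above 0 in the 14-month hearts alone, at 0.11, 0.03 and 0.02, and in the fit of all 6 libraries Ndufa12 and Ndufs1 were also above 0 under quantile normalization and under scaling to the total without mitochondrial genes.

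**Figure D5:**
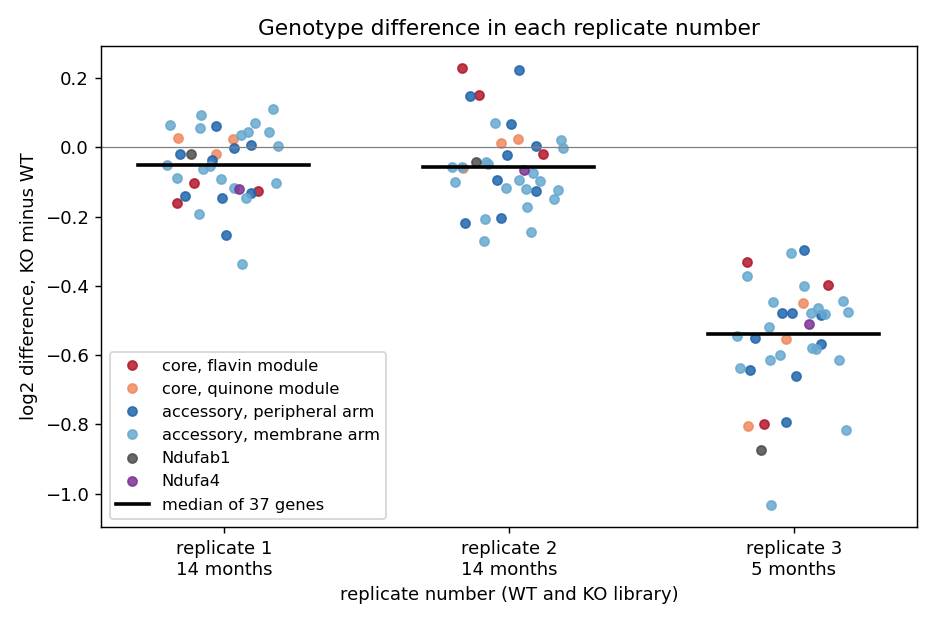
Log2 difference between the KO and the WT library of the same replicate number for 36 of the 37 genes, coloured by role, with a bar at the median of the 37. Replicates 1 and 2 (14 months) scatter around 0 with medians of −0.05 and −0.06, and all 37 genes are below 0 in replicate 3 (5 months), with a median of −0.54; 35 of 37 fitted differences over the 6 libraries are below 0 under quantile normalization.

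At 5 months the KO heart held 48.8 to 81.4% of the WT signal of the members, with a median of 68.9%. Over all genes the same pair of libraries had a median log2 difference of −0.06, and this difference too moved with transcript length: it was −0.51 in protein-coding genes of up to 750 bases, −0.45 from 750 to 1000, −0.33 from 1000 to 1500, −0.18 from 1500 to 2500, −0.02 from 2500 to 4000 and 0.16 above 4000. The members had −0.48, −0.61, −0.48 and −0.61 in the first 4 of these classes, so those of up to 750 bases lay near the median of their class and the others below it. Over all 6 libraries the fitted median of KO minus WT of the members was −0.20, and −0.10 with the trend of length and GC content removed. In the 14-month hearts alone it was −0.04, and −0.02 when treated likewise. Most other lists also read lower in KO in the pair of 5-month libraries. The median was −0.55 for 77 cytosolic ribosomal protein genes, which are also short, −0.52 for the subunits of complexes II to V (41 of 41 below WT) and −0.33 for the assembly factors (16 of 17). Of the cell type markers, the median was −0.58 for cardiomyocytes (11 of 12), −0.68 for fibroblasts (8 of 8), −0.65 for smooth muscle and pericytes (6 of 6), −0.58 for macrophages (8 of 8), −0.93 for adipocytes (8 of 10), −2.18 for erythroid cells (5 of 5) and −0.27 for endothelial cells (5 of 8). For the regulators of mitochondrial biogenesis it was 0.08. The part of any of these in the difference was not tested.

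Whether the genotype difference at 5 months differed from that at 14 months was tested as an interaction, in which the residual spread comes from the 14-month hearts alone. It was called in 4 members, all 4 in the direction of a lower KO value at 5 months, against 1.19% of all genes tested. Ndufa11 had −1.06 (SE 0.15, limma adjusted p = 0.0301), with a KO minus WT difference of 0.03 at 14 months and −1.03 at 5 months. Ndufab1 had −0.84 (SE 0.14, limma adjusted p = 0.0393), with −0.03 and −0.87. Ndufa10 had −0.77 (SE 0.13, limma adjusted p = 0.0429), with −0.04 and −0.81, and the quinone-module core subunit Ndufs7 had −0.79 (SE 0.14, limma adjusted p = 0.0446), with −0.02 and −0.81. Over the 37 members the median was −0.47, from −1.06 for Ndufa11 to −0.20 for Ndufb5, and over all genes −0.05. Ndufv1 came close, with −0.82 (SE 0.16, limma adjusted p = 0.0566). At the other end Ndufb5, Ndufb9 and Ndufc1 had −0.20, −0.29 and −0.29. Other lists had interaction medians near that of the members: −0.48 for complexes II to V, −0.50 for cytosolic ribosomal protein genes and −0.53 for cardiomyocyte markers. The median was −0.27 for the assembly factors and 0.14 for the regulators of mitochondrial biogenesis. With the length and GC trend removed it was −0.21 for the members, −0.24 for complexes II to V and −0.21 for the ribosomal protein genes. The 4 calls did not hold: 0 members were called with the length and GC trend removed, with limma-voom, with limma without its trend and robust options, with no filter on low values, with quantile normalization, or without WT replicate 1 or WT replicate 2, and 1 without KO replicate 2 or with scaling to the total without mitochondrial genes.

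Most complex I assembly factors and most nuclear subunits of the other complexes were also called higher at 5 months. Over all genes tested, 16.0% were called higher and 17.7% lower. Of 17 complex I assembly factors 13 were higher at 5 months and 0 lower, with a median difference of 0.72. The largest were Ndufaf8 (1.54 (SE 0.17, limma adjusted p = 0.000833)), Ndufaf2 (1.19 (SE 0.20, limma adjusted p = 0.00343)) and Tmem126b (0.95 (SE 0.12, limma adjusted p = 0.00133)), and the 4 not called were Ndufaf4, Ndufaf7, Acad9 and Ecsit. With the length and GC trend removed, 9 of the 17 assembly factors were called higher and 0 lower, with a median of 0.54. Under that setting 14.1% of all genes were called higher. Of 41 nuclear subunits of complexes II to V 32 were higher and 2 lower, with a median of 1.05, the same as for the complex I members. With that trend removed, 29 of the 41 were higher and 2 lower, with a median of 0.76. Their KO minus WT median was −0.22 and 0 were called between the genotypes.

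Among the 16 regulators of mitochondrial biogenesis the counts called were near the shares over all genes tested, 16.0% higher and 17.7% lower at 5 months. The 3 higher at 5 months were Esrra (0.63 (SE 0.13, limma adjusted p = 0.00791)), the mitochondrial transcription factor Tfam (0.59 (SE 0.16, limma adjusted p = 0.0218)) and Tfb2m (0.40 (SE 0.11, limma adjusted p = 0.024)), and the 2 lower were Yy1 (−1.07 (SE 0.13, limma adjusted p = 0.00123)) and Esrrb (−0.92 (SE 0.12, limma adjusted p = 0.00158)). The median of the 16 regulators was 0.03. With the length and GC trend removed, Tfb2m was at 0.15 and no longer called (limma adjusted p = 0.288). Esrra (1.01), Tfam (0.60), Yy1 (−0.68) and Esrrb (−0.39) were still called. Nrf1, whose motif is in 6 member promoters, read 137, 171 and 151 (WT) and 126, 177 and 159.6 (KO), a difference of 0.04 (SE 0.20, limma adjusted p = 0.897). Ppargc1a, the coactivator PGC-1α, read 3213, 1794 and 2597 (WT) and 1710.4, 1919.8 and 2149 (KO), a difference of 0.18 (SE 0.21, limma adjusted p = 0.55).

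Markers of cell types are set beside the shares over all genes tested, 16.0% called higher and 17.7% called lower at 5 months. Of the 12 cardiomyocyte markers 6 were higher at 5 months (Tnnt2, Tnni3, Tnnc1, Myl2, Myl3 and Ttn) and 1 was lower (Ryr2), with a median of 0.59. Of the 8 fibroblast markers 4 were lower and 0 higher, with sums of 20468, 20516 and 18999.6 (WT) and 20216, 17824 and 12359 (KO). Of the 8 endothelial markers 4 were lower and 1 higher, with sums of 16270.0, 16116 and 12400.5 (WT) and 17631, 13687 and 10479.7 (KO). The 8 macrophage markers (1 higher, 2 lower) summed to 6514, 5560.0 and 7311 (WT) and 6975, 4907 and 5849 (KO), and the 6 smooth muscle and pericyte markers (0 higher, 1 lower) to 16662, 16291 and 14585 (WT) and 16859, 13951 and 10658 (KO). Adipocyte markers (1 of 10 tested higher, 1 lower) summed to 7849.9, 10205 and 12471 (WT) and 10232, 10172 and 12430.0 (KO), most of it Fabp4, while Ucp1 of brown fat read 108, 8.71 and 26.5 (WT) and 465, 788 and 4.26 (KO). Erythroid markers (0 of 5 called) summed to 66819.9, 6782 and 13770.3 (WT) and 10249.7, 19386 and 2727 (KO). The part of the cell makeup of the samples in the members' age and genotype differences was not tested.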

How the data were processed

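Frozen hearts were extracted with Trizol and BGI made the Illumina libraries, per the labels' protocols. The submitters' processing notes name Salmon 1.5.2 and mm10; how the values were normalized is not given in the sources used here. Deposited values are a normalized gene-level signal, 1 column per library. These are not whole reads: 4.43 to 6.14% of low values lay at whole multiples of the commonest step (tolerance 0.01), so reads were not recovered and no count test was used, and the read depth behind each value is unknown. Symbols, types and lengths came from GENCODE M21 (20122 of 20254 identifiers matched), and 108 lines without values were left out.

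On log2(value + 1), limma 3.58.1 in R 4.3.3 (trend and robust options) was fitted to the 13823 genes at 10 or more in at least 3 libraries, with Benjamini-Hochberg adjustment over all of them and a threshold of 0.05; fold changes are on that scale. Genotype was fitted with age as covariate and age with genotype (3 residual degrees of freedom), and their interaction apart (2). The script was tested on simulated data. Transcript length is the median over the best-supported protein-coding transcripts.

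In the titles each replicate number stands on 1 WT and 1 KO library. After removal of genotype means, same-numbered libraries correlated at 0.390, 0.383 and 0.617. Crossed pairs of 14 months reached 0.369 and 0.382 and pairs of different age were negative, so the numbers follow age. Same-numbered libraries also matched in their Y-linked signal, which was low only in replicate 2. Alternatives were pseudocounts, filters, scalings, limma-voom, limma without options, length and GC correction, a replicate block, and libraries left out.

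Members and lists were chosen with earlier results of these data known. Values in every library are given for core members, the extremes and smallest p-values of each comparison, called members and those highest or lowest per kilobase, which took in nearly all 37; for completeness most others are given too. Of the listed genes, Coa1 was not analysed here and Atp5pb is the same gene as Atp5f1. The values of 1 member are not reported here; it stays in all counts and medians over the 37.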

Additional observations from a re-analysis of the deposited data

Results flagged for a closer look

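In 4 nuclear complex I genes the KO minus WT difference at 5 months differed from that at 14 months by the interaction term (limma, adjusted over 13823 genes). The log2 values were −1.06 for Ndufa11 (limma adjusted p = 0.0301, SE 0.15), −0.84 for Ndufab1 (limma adjusted p = 0.0393, SE 0.14), −0.77 for Ndufa10 (limma adjusted p = 0.0429, SE 0.13) and −0.79 for Ndufs7 (limma adjusted p = 0.0446, SE 0.14). The limma adjusted p over the alternatives ran from 0.0274 to 0.183 for Ndufa11, 0.0359 to 0.192 for Ndufab1, 0.0406 to 0.201 for Ndufa10 and 0.0407 to 0.196 for Ndufs7. Each rests on 1 WT and 1 KO heart of 5 months.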

How the results depend on the processing

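Of the recomputed counts and medians over the members, 85 kept their direction and stayed within 1.5 times the reported count or within 1 SD of the replicate medians (0.28 for genotype, 0.34 for age), and 9 moved further; all 9 were counts of interaction calls, 4 as reported. That count was 0 with the length and GC trend removed, with limma-voom, with limma without trend and robust options, with no filter on low values and with quantile normalization, and 1 with scaling to the total without mitochondrial genes; with 1 library left out it ran from 0 to 3 (0 without WT replicate 1 or WT replicate 2, 1 without KO replicate 2). It could not be fitted without replicate 3 of either genotype. With 1 library left out, age calls ran from 29 to 37 (37 without KO replicate 3), genotype calls stayed at 0, the age median ran from 0.80 to 1.28 and the genotype median from −0.27 to −0.04 (−0.04 without either replicate 3). The genotype median of −0.20 is itself smaller than that SD, and it was −0.10 with the length and GC trend removed (−0.13 with this in male libraries alone), −0.11 with quantile normalization, −0.0975 with scaling to the total without mitochondrial genes and −0.04 in the 14-month hearts alone. With the replicate block, 0 members were called between KO and WT and the median was −0.20, so the pairing changed no call. Scaling to the total without mitochondrial genes moved the median age difference of all genes from −0.02 to −0.22 and that of the members to 0.85. The 2 alternatives that join length correction with fewer libraries were chosen after seeing the data.

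Single genes that changed sign were these; the cause was not tested. For age, Ndufab1 was −0.0926 with the length and GC trend removed (−0.0568 with this in male libraries alone), −0.21 with quantile normalization and −0.12 with the total without mitochondrial genes; with 1 library left out Ndufab1 ran from −0.34 to 0.50 and Ndufa10 from −0.0786 to 0.69. For the interaction, Ndufb5 was 0.0553 (length and GC), 0.0927 (limma-voom), 0.19 (quantile) and 0.0728 (total without mitochondrial genes), Ndufb9 0.0733 (length and GC) and 0.0636 (quantile), and Ndufc1 0.00671 (limma-voom). For KO minus WT in the 14-month hearts alone, Ndufa11, Ndufa12, Ndufs1 and Ndufs3 were 0.0257, 0.11, 0.0338 and 0.0243, and 0.0794, 0.13, 0.0422 and 0.0375 with the length and GC trend removed as well. Ndufa12 was also 0.0963 (length and GC), 0.0233 (the same in male libraries alone), 0.0191 (limma-voom), 0.0998 (quantile) and 0.0809 (total without mitochondrial genes), and Ndufs1 0.0556 (quantile) and 0.0186 (total without mitochondrial genes). With 1 library left out Ndufa11 ran from −0.47 to 0.0257, Ndufa12 from −0.11 to 0.11, Ndufs1 from −0.20 to 0.0338 and Ndufs3 from −0.19 to 0.0243.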

Other observations

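Relatives of the members outside the naming rule did not all move as they did. Ndufa4l2, a paralogue of Ndufa4 known as a hypoxia-inducible gene, was lower at 5 months and read 256, 278 and 179.9 (WT) and 232, 223 and 99.5 (KO), a difference of −0.88 (SE 0.18, limma adjusted p = 0.00875). Ndufb1-ps, the row that stands for Ndufb1, read 1363, 1413 and 1857 (WT) and 1241, 1279.8 and 1162 (KO), an age difference of 0.15 (SE 0.14, limma adjusted p = 0.449). Each of its KO values lay below each WT value, with a fitted KO minus WT difference of −0.32 (SE 0.14, limma adjusted p = 0.745). Genotypes without overlap, in either direction, were seen in 798 of the 13823 genes tested and in 0 of the 37 members. The pseudogene Ndufb4c read 1409, 1495 and 3749 (WT) and 1377, 1347 and 2512 (KO), and was higher at 5 months by 1.13 (SE 0.14, limma adjusted p = 0.00115); as a processed pseudogene it may share reads with Ndufb4.

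Among the other respiratory complexes the highest age differences were in short subunits of complexes IV and V. Cox8b and Cox7a1, the muscle forms of their subunits, differed by 2.43 (SE 0.13, limma adjusted p = 5.08e-05) and 2.34 (SE 0.12, limma adjusted p = 5.08e-05), Cox6c by 2.32 (SE 0.13, limma adjusted p = 6.61e-05) and Atp5e by 2.30 (SE 0.16, limma adjusted p = 0.000154). The 2 genes lower at 5 months were Cyc1, cytochrome c1 (−0.59 (SE 0.14, limma adjusted p = 0.0141)), and Atp5g2 (−1.33 (SE 0.20, limma adjusted p = 0.00257)), which encodes the same mature ATP synthase subunit c as Atp5g1 (0.71 (SE 0.14, limma adjusted p = 0.00762)) and Atp5g3 (1.08 (SE 0.19, limma adjusted p = 0.00489)).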
